A study of Mus musculus with 3 samples.

Results

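The cytosolic ribosomal protein genes were followed in Ser5 Pol_II ChIP-Seq of mouse macrophages before and after endotoxin. Members were the spliced protein-coding genes of the GENCODE M1 annotation (mm9) whose symbol is Rpl or Rps with a number and optional letters, together with Rplp0, Rplp1, Rplp2 and Rpsa. The Rps6k kinase genes and the pseudogene and related-sequence symbols were left out. The rule used names and gene structure only. Of 81 matching symbols 1, Rpl10l, had no intron, which left 80 genes of 19490 spliced coding genes on chromosomes 1 to 19 and X. They comprised 45 genes of the large subunit, 32 of the small subunit and 3 of the stalk. They lay on 19 chromosomes, 14 of them on chromosome 7, and 30 of them carried 58 annotated snoRNA genes in the same transcribed region.

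The macrophages were grown from the bone marrow of female Fvb mice (Fvb/Hsd in the study's methods) in medium conditioned by L929 cells. The Ser5 antibody recognizes the repeats of the large Pol_II subunit when phosphorylated at serine 5, a mark that Pol_II receives as it begins transcription. There was 1 library of untreated cells with 7616771 tags used, 1 library of cells given 10 ng/ml lipopolysaccharide (LPS) for 2 h with 6249819, and 1 input DNA library of untreated cells with 7533308. Levels are given as TPM, here tags after scaling each library to 1000000 tags. The labels give LPS alone for the treated library, whereas a figure of the study adds gamma interferon. The deposited tags were 45, 30 and 36 bases long in that order. The study's methods give the lengths of both Ser5 libraries the other way round, and the libraries are called here by their labels, which LPS response genes such as Tnf and Ccl5 matched. With 1 library per condition no spread between replicates could be measured, so no test was made, and all 95% intervals printed below are exact and cover counting error only. Whether fewer cells transcribed a gene or each cell carried less Pol_II on it cannot be told apart in such bulk chromatin.

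The ribosome is built from a small subunit, which decodes the mRNA, and a large subunit, which joins amino acids, and each holds 1 copy of most of its proteins. The genes must therefore be expressed together and strongly in all growing cells. Their mRNAs typically begin with a C followed by an unbroken run of pyrimidines (C or T in the DNA), the terminal oligopyrimidine or TOP element, through which the kinase mTOR regulates their translation. Many introns of these genes encode snoRNAs, which guide the modification of ribosomal RNA. Processed pseudogenes, which are intronless copies of the mRNA, are scattered over the genome for most of them, and a short tag from an exon can match such a copy.

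Because the TOP element lies at the start itself, 30 bases around the annotated start are printed for the members with the strongest Ser5 signal at the start in untreated cells. Sequences were read from the mm9 genome 5′ to 3′ on the strand of the gene, with 15 bases before the start base, and capitals mark the longest pyrimidine run that includes the start base or begins within 10 bases after it. They were Rpl3 on the minus strand at chr15:79913822-79913851, Rps9 on the plus strand at chr7:3655580-3655609, Rpl10a on the plus strand at chr17:28465401-28465430, Rps6 on the minus strand at chr4:86503302-86503331, Rps21 on the plus strand at chr2:179992067-179992096 and Rps12 on the minus strand at chr10:23507001-23507030. All 6 windows span the upstream promoter and the first exon.
Rpl3: cacgttcgcacgctcagggggCggagccat
Rps9: gcgtgatgacgtcaCTacaaggcgacgtta
Rpl10a: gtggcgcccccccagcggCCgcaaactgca
Rps6: gccggctgttctcgcgagaaCTTagagcgc
Rps21: cttaccgaggacccgCCCTCCTgcccaata
Rps12: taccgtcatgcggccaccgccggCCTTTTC

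The runs of these 6 genes were 1, 2, 2, 3, 7 and 11 bases long in that order, so the strongest signals did not lie over the longest runs as placed by the annotation. The run of Rps12 extends past the printed window. The members with the longest runs, picked after the run lengths were seen, were Rpl34 on the minus strand at chr3:130433241-130433270, Rps2 on the plus strand at chr17:24857040-24857069 and Rpl32 on the minus strand at chr6:115758751-115758780. Their runs were 20, 20 and 17 bases long, and 18 bases of the Rpl34 run fall inside the window.
Rpl34: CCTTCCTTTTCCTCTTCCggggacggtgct
Rps2: ccgcggcgCCTCCCTCTTCTTCTTCTTCgg
Rpl32: gcgccgccgccgCCTCTTCCTTCTTCCTCg

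A run of at least 8 pyrimidines was held by 20 of the 80 members (25%), against 7.81% of all 19490 spliced coding genes and 7.63% of the 9732 genes with a Ser5 peak at the start in both libraries. A run of at least 10 was held by 13.8% of members and 3.97% of all genes. The start base was C in 23.8% of members and 16.4% of all genes. Long pyrimidine runs were thus more frequent at these starts than over the annotation as a whole, but most members lacked one at the annotated start base, whose position was taken from the annotation and not measured here.

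From 250 bases before to 50 bases after the start, both strands were searched for short motifs. The motif CCGGAAGT, the core bound by ETS family factors such as GABP, was present in 14 members (17.5%), in 5.43% of all genes and in 9.85% of genes with a peak in both libraries. The Sp1-type GC box GGGCGG was present in 52.5%, 49.5% and 68.4%, and the E-box CACGTG in 12.5%, 8.5% and 11%. TATAAA on the sense strand beginning 40 to 20 bases before the start was found in 1 member, Rps2 (1.25%), and in 2.32% of all genes. The NF-kB type motif, GGGA and TTCC with 2 bases between them, was found in 1.25% of members and 1.6% of all genes, and the interferon-response core, GAAA repeated after 2 bases, in 6.25% and 3.3%. Motifs of the YY1 and NRF1 types were found in 0% and 1.25% of members and in 0.97% and 1.3% of all genes. Against all genes the ETS-type motif thus showed the largest difference in share among these motifs. This order did not hold against genes with a peak in both libraries, where the share differed most for the GC box, which was less frequent in members, and where the interferon-response core (6.25% and 3.14%) and TATAAA anywhere in the window (11.2% and 5.99%) differed by more in proportion than CCGGAAGT. Members with and without CCGGAAGT had median levels at the start of 43.7 and 43.3 TPM.

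The ETS-type motif is shown in capitals with 11 bases on either side for 3 members with high untreated levels among those that hold it, in each case on the strand of the gene. The sites were in Rps6 on the minus strand at chr4:86503344-86503373, Rps18 on the minus strand at chr17:34092749-34092778 and Rps27l on the plus strand at chr9:66793891-66793920. Their first bases lay 46 and 105 bases before the start in Rps6 and Rps18, and at base 10 of the first exon in Rps27l.
Rps6: ttaatctacgcCCGGAAGTaacgcccctct
Rps18: agaaggccgaaCCGGAAGTtatagctccgg
Rps27l: ccgcctctatcCCGGAAGTtgctgaggggc

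Ser5 Pol_II was found at the start of nearly every ribosomal protein gene. Tags were counted by their 5′ end within 1 kb on either side of the start, a window of the same length for every gene, and given in TPM. The median level over the 80 members was 42.5 TPM in untreated cells, 37.4 after LPS and 2.39 in the input. Over all spliced coding genes the medians were 4.86, 3.36 and 1.46. A Ser5 peak overlapped the window in 78 of 80 members in each library, where peaks were called in 53.2% of all genes in untreated cells and 51% after LPS. Summed over members, the window held 19.7 times the input density in untreated cells (95% interval 18.6 to 20.8) and 17.9 times after LPS (16.9 to 18.9).

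Among all genes, 46 of the 80 members were in the top 10% by untreated level at the start, and 43 after LPS. By density over the transcript, per kb, 78 and 77 were in the top 10%. The median density was 12.5 TPM per kb in untreated cells, 10.2 after LPS and 0.913 in the input, against 0.562 in untreated cells over all genes. Member transcripts were short, with a median length of 3164 bp against 18300 bp over all genes, so that the start window makes up much of the transcript. The mitochondrial ribosomal protein genes, whose products form the separate ribosome of mitochondria, had a median start level of 21.1 in untreated cells (n = 73), and the proteasome subunit genes 23.1 (n = 40).

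**Figure D1:**
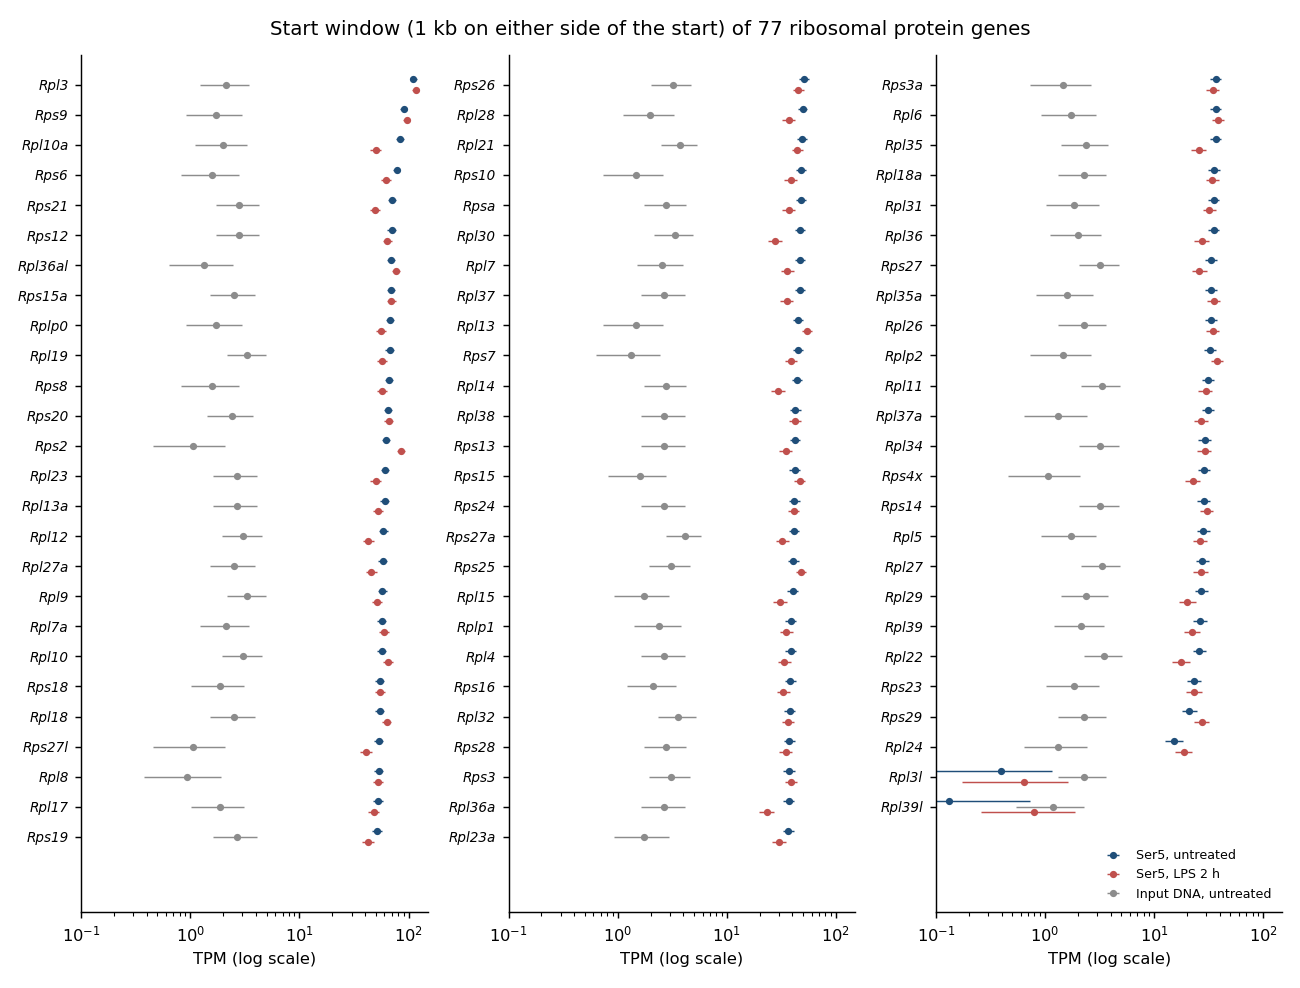
Ser5 TPM in the start window of 77 of the 80 ribosomal protein genes on a log axis, ordered by the untreated level (blue, untreated; red, LPS for 2 h; grey, input DNA; points are the single libraries and bars exact 95% Poisson intervals, cut at 0.1). All genes shown but Rpl3l and Rpl39l lie well above their input, and the blue and red points of most genes lie close together.

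The highest start level belonged to Rpl3, a core protein close to the catalytic centre of the large subunit, with 845 tags in untreated cells, 728 after LPS and 16 in the input, or 111, 116 and 2.12 TPM. Rps9, which lines the path of the mRNA in the small subunit, followed with 90.6 TPM in untreated cells, 95.8 after LPS and 1.73 in the input. Both genes were at nearly the same level in the libraries of untreated and treated cells, and their ratios of LPS to untreated, 1.05 (0.95 to 1.16) and 1.06 (0.947 to 1.18), had intervals that include 1. The next 3 genes were lower in the LPS library by more than counting error on the scale of all tags. Rpl10a, a protein of the mobile L1 stalk, had 83.2 and 49.8 TPM. Rps6, the small subunit protein that S6 kinases phosphorylate, had 77.7 and 61.9. Rps21, another small subunit protein, had 70.2 and 49.3. Their inputs were 1.99, 1.59 and 2.79. The interval of the Rps6 ratio, given below, includes the median ratio of all genes, 0.835.

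At the lower end stood 2 tissue-restricted paralogues and 3 ordinary ribosomal proteins. Rpl39l, the paralogue of Rpl39 known from testis, had 1 tag in untreated cells, 5 after LPS and 9 in the input. Rpl3l, the paralogue of Rpl3 known from striated muscle, had 3, 4 and 17. Neither exceeded its input level and neither had a peak, whereas their ubiquitous relatives Rpl39 and Rpl3 had 201 and 845 untreated tags. These 2 genes are the members left out by the minimum of 10 Ser5 tags over both libraries used for ratios below. The 30 bases around their annotated starts, chr16:10170306-10170335 and chr17:24869615-24869644 on the plus strand, carried runs of 5 and 4 pyrimidines.
Rpl39l: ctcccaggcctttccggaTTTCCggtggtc
Rpl3l: gtcatcaacagctacagtgCCCCaaatgtc

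Next came Rpl24, which forms a bridge between the subunits, with 15.2 TPM in untreated cells and 18.7 after LPS. Rps29 had 21.0 and 27.4, and Rps23, a protein of the decoding centre, 23.1 and 23.2. Even Rpl24, with 116 untreated tags and 10 in the input, stood far above background. The start levels of the other paralogues were not at the low end. Rps27l, a relative of Rps27 induced by p53, had 53.4 TPM in untreated cells and 40.5 after LPS. Rpl36al, the relative of Rpl36a, had 69.5 and 76.5, but its start lies within 1 kb of that of Mgat2 and the tags of the pair cannot be told apart. Another coding start lay within 1 kb in 11 members in all. In its introns beyond 1 kb from the start, Rps27l did not exceed the input. Per kb of unique positions they held 1.05 TPM in untreated cells, 0.738 after LPS and 1.21 in the input.

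After LPS the level at the start was slightly lower for most members on the scale of all tags. Their median ratio lay slightly above that of all genes but their summed ratio slightly below, and none of the 78 tested changed by 2-fold. Summed over members, 27786 tags in untreated cells stood against 20723 after LPS, a ratio of 0.909 after division by the library totals (0.893 to 0.926). The median ratio over the 78 members with at least 10 Ser5 tags was 0.907, with quartiles of 0.787 and 1.01, and 56 of the 78 were below 1. In all, 0 of 78 were at least 2-fold lower and 0 at least 2-fold higher, where 13.8% of the 12055 genes tested were lower and 5.82% higher. Members had at least 233 tags each, and among the 6672 genes with at least that many, 6.47% were lower and 3.63% higher.

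The direction depended on the scale. The median of all genes was itself 0.835, a shift of -0.26 on the log2 scale, and 68.8% of all genes were below 1, against 71.8% of members. Relative to that median the members' median was 1.09, and 28 of 78 members lay below it. Over the 6672 genes with at least 233 tags the median was 0.87, nearer to that of the members. The summed ratio of the members, 0.909, lay below that of all genes, 0.934 (0.932 to 0.936), and that of these 6672 genes, 0.9625. When libraries were scaled to the tags outside all peaks, the members' median was 0.976 with 45 of 78 below 1, and that of all genes was 0.899. On none of these scales did a member reach 2-fold.

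The spread of the members was narrower than that of the 2 families set beside them (plot of cumulative ratios). The middle 50% of the members ran from 0.787 to 1.01, that of the 6672 genes with at least 233 tags from 0.708 to 1.06. The mitochondrial ribosomal protein genes had a median of 0.809 and quartiles of 0.684 and 0.992, with 4 of 73 at least 2-fold lower and 0 higher. The proteasome subunit genes had a median of 1.03 and quartiles of 0.803 and 1.29, with 0 of 39 lower and 4 higher. Both families had lower start levels than the members, and so more counting error per gene. The narrow spread was not particular to the members. In the lists given below the middle 50% ran from 0.756 to 0.934 in 15 genes of elongation factors and other TOP mRNAs. In 24 ribosome biogenesis genes it ran from 0.692 to 0.865. These are descriptions of 1 pair of libraries, and the families and lists were not tested against each other.

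**Figure D2:**
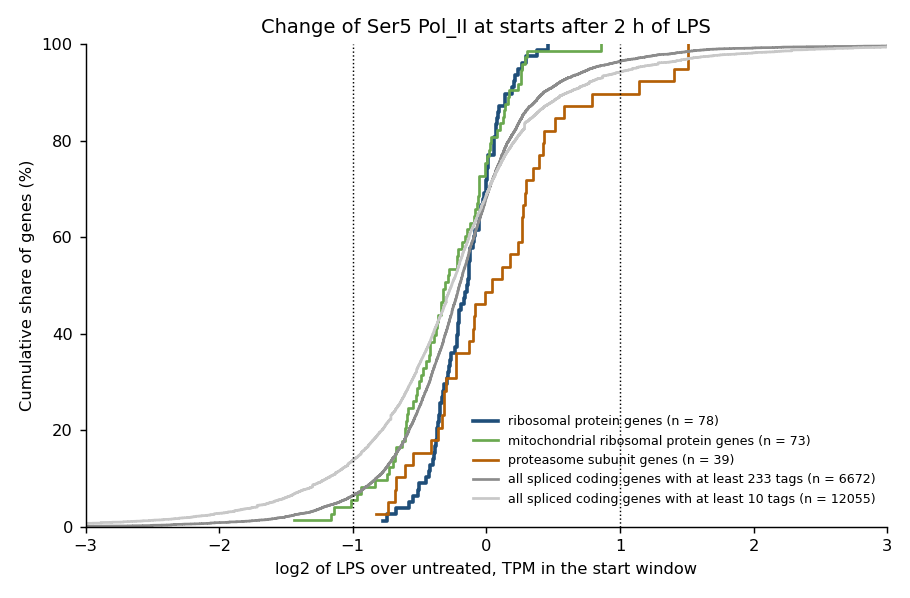
Cumulative share of genes (%) by the log2 ratio of LPS to untreated in the start window, for the 78 ribosomal protein genes (dark blue), the mitochondrial ribosomal protein genes (green), the proteasome subunit genes (orange) and all spliced coding genes with at least 233 (dark grey) or 10 tags (light grey). Dotted lines mark 2-fold. The curve of the ribosomal protein genes is steep and lies wholly between the dotted lines.

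Counting intervals of single members excluded 1 on the lower side in 31 members (39.7%) and on the upper side in 5 (6.41%). Over all genes tested the shares were 38% and 12%, and over the genes with at least 233 tags 41.8% and 14.8%. The share on the lower side was thus near the background, and that on the upper side below it. The member nearest to 2-fold lower was Rpl30, a large subunit protein, with 360 tags in untreated cells, 173 after LPS and 25 in the input, a ratio of 0.586 (0.486 to 0.704). Rpl10a followed with 634, 311 and 15 tags and a ratio of 0.598 (0.52 to 0.686). Rpl36a had 282, 145 and 20 tags and a ratio of 0.627, Rpl14 had a ratio of 0.671, and Rpl22, an RNA-binding protein of the large subunit, one of 0.683. All 5 belong to the large subunit, as do 43 of the 78 tested members, and the next was Rps21 of the small subunit at 0.702. All but Rpl10a had untreated levels under 50 TPM, where the median over members was 42.5.

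At the other end Rps2 had 472 tags in untreated cells, 533 after LPS and 8 in the input, a ratio of 1.38 (1.21 to 1.56). Rps29 had 160, 171 and 17 tags and a ratio of 1.30 (1.04 to 1.63). Rpl24 had a ratio of 1.23 (0.943 to 1.6), Rpl13 of 1.20 (1.03 to 1.4) and Rps25 of 1.18 (1.00 to 1.39). The interval of Rpl24 includes 1 and that of Rps25 begins just above it. Rpl18, at 1.16 (1.01 to 1.34), was the fifth member whose interval lay above 1. Over the 78 members untreated and LPS levels had a Spearman correlation of 0.894, and the untreated level and the ratio one of -0.077. Each of these points comes from the same pair of libraries.

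Median ratios were close between the subunits, at 0.894 in 43 genes of the large subunit, 0.916 in 32 of the small subunit and 0.909 in the 3 stalk genes. The stalk recruits the factors that drive elongation. Its base Rplp0 had 67.6 TPM in untreated cells and 55.7 after LPS, Rplp1 had 38.7 and 35.2, and Rplp2 had 32.8 and 37.9. The interval excluded 1 for Rplp0 only, at 0.824 (0.717 to 0.945), and includes the median of all genes, 0.835. Members with snoRNA genes had a median ratio of 0.91 (n = 30) and those without of 0.901 (n = 48), at median untreated levels of 47.5 over 30 and 41.0 over all 50 genes without.

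Several ribosomal proteins have known roles outside the ribosome. Rpl5 and Rpl11 bind Mdm2 and so stabilize p53 when ribosome assembly is disturbed; their ratios were 0.935 (0.759 to 1.15) and 0.943 (0.774 to 1.15). Rpl13a, which can leave the ribosome to silence inflammatory mRNAs in myeloid cells, had 60.5 TPM before and 52.3 after LPS, for a ratio of 0.864 (0.748 to 0.998). Rps3, also described as a partner of NF-kB, had 37.2 and 38.6, a ratio of 1.04 (0.87 to 1.24). Of these 4 genes the interval of Rpl13a alone excluded 1. It includes the median of all genes, 0.835, and that of the genes with at least 233 tags, 0.87, and the Rpl13a ratio lay between these medians.

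Rps19, mutated in Diamond-Blackfan anaemia, had 51.2 TPM before and 42.6 after LPS, for a ratio of 0.831 (0.709 to 0.974). Rpl38, needed for the translation of Hox mRNAs, had 42.5 and 42.4, a ratio of 0.997 (0.844 to 1.18). Rpsa, also known as the laminin receptor, had 47.7 and 36.8, a ratio of 0.772 (0.652 to 0.913). Rps27a, made as a fusion with ubiquitin, had 41.4 and 32.3, a ratio of 0.781 (0.652 to 0.936), with another coding start within 1 kb. The lower values of Rps19, Rpsa and Rps27a were beyond counting error on the scale of all tags. All lay below the median of all genes, 0.835, but each interval includes that median. Rps6 had a ratio of 0.797 (0.699 to 0.907), an interval that includes it too.

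Over the whole transcript the median ratio lay close to that of all genes, at 0.881 beside 0.879. The summed ratio of the members did not, at 0.896 (0.879 to 0.913) beside 1.046 (1.045 to 1.048) over all genes. Here 0 of 80 members were at least 2-fold lower, where 11.2% of 16797 genes were, and 1 was at least 2-fold higher, where 6.02% were. That member was Rpl39l, with 5 and 10 tags against 17 in the input. The lowest ratios among members with at least 50 tags were those of Rpl30 (0.604), Rps21 (0.619), Rpl36a (0.648), Rpsa (0.661) and Rps25 (0.694). The highest were those of Rps20 (1.26), Rpl24 (1.25), Rps29 (1.23), Rpl13 (1.16) and Rpl26 (1.13).

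Start and transcript ratios went together over the members, with a Spearman correlation of 0.76 over 78 genes whose windows overlap their transcripts. Rps25, a small subunit protein needed by several viral internal ribosome entry sites, departed from this, with 158 tags before and 90 after LPS over the transcript but 310 and 300 in the start window. Its start lies within 1 kb of that of Trappc4, so the window also counts tags of the neighbour. Rps20 had 561 and 578 tags over the transcript and 496 and 410 at the start, a start ratio of 1.01.

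**Figure D3:**
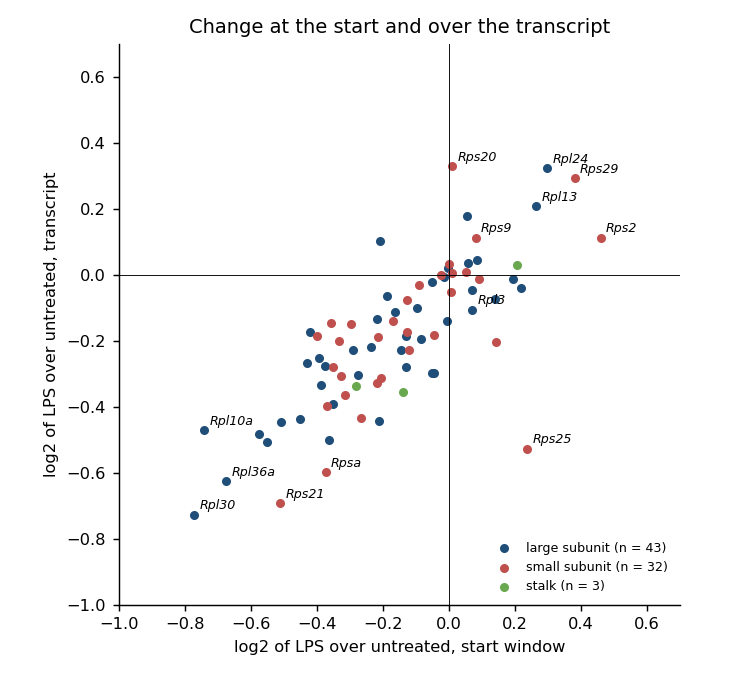
Log2 ratio of LPS to untreated in the start window (horizontal) against the transcript (vertical) for the 78 members with at least 10 tags in the start window, coloured by subunit, with lines at 0. Points lie along the diagonal between Rpl30 at the lower left and Rps29 at the upper right, and Rps25 and Rps20 lie off it.

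Along the gene, Ser5 Pol_II formed a sharp maximum just inside the start. In bins of 100 bp averaged over members it was highest from 0 to 99 bp, at 115 TPM per kb in untreated cells, 99.7 after LPS and 1.56 in the input. It had dropped to 6.71 in untreated cells by the bin that starts at 1000 bp. The density of the transcript beyond 1 kb was 0.233 of that in the start window in untreated cells and 0.223 after LPS (medians of 74 members with at least 500 bp there). Over all genes with a peak in both libraries the medians were 0.0848 and 0.0909, in transcripts that are much longer. Among members with a peak, Rpl18 had the highest value, 0.714 in untreated cells and 0.562 after LPS, and Rps27l the lowest, 0.0365 and 0.0326.

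Before the 3′ end the density fell and beyond it the density rose again. It was 2.18 TPM per kb in the last 100 bp of the transcript in untreated cells and 13.9 from 700 to 799 bp beyond the end, with 11.7 after LPS and 0.879 in the input in the latter bin. The same shape was seen at a lower level over all genes with a peak in both libraries, at 1.75 in the last 100 bp and 4.09 from 700 to 799 bp beyond the end in untreated cells. The last bases of the transcript lie in exons, where fewer positions can be matched uniquely (below), so the following comparison, chosen after the data were seen, used introns beyond 1 kb from the start and counted uniquely matching positions only. The 2 kb beyond the end held more tags per position than the introns in 62 of 72 members in untreated cells and 60 of 72 after LPS, with median ratios of 1.65 and 1.65. In the input the ratio was 0.994, with 36 of 72 higher. Genes in general shared this excess. Per base, without regard to uniqueness, the median ratios were 1.57 in untreated cells and 1.54 after LPS over these 72 members, and 1.74 and 1.48 over 9425 genes with a peak in both libraries, whose introns are far longer. The input medians were 0.951 and 0.902.

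Without members that have another coding gene within 3 kb of the end, 42 remained with enough intron, and the median ratios were 1.55, 1.54 and 1.04 in untreated cells, after LPS and in the input. Rps19, Rpl19 and Rpl3 are examples, with input ratios of 1.38, 2.44 and 0.97 beside untreated Ser5 ratios of 3.24, 3.09 and 2.53. At Rpl19 the input ratio rests on few tags, 22 beyond the end and 9 in its introns, or 1.61 and 0.658 TPM per kb of unique positions. In untreated cells the 2 kb beyond Rps19 held 21.6 TPM per kb of unique positions against 6.68 in its introns, the 2 kb beyond Rpl19 held 13.9 against 4.49, and the 2 kb beyond Rpl3 held 39.7 against 15.7.

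**Figure D4:**
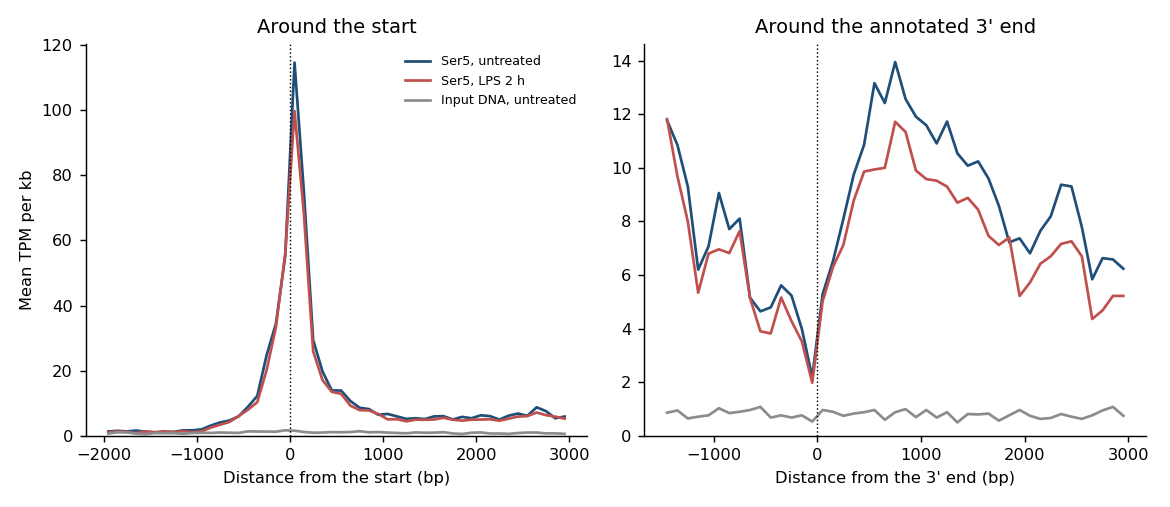
Mean TPM per kb over the 80 members in 100 bp bins, around the annotated start (left) and the annotated 3′ end (right; the vertical scales differ), in untreated cells (blue), after LPS (red) and in the input (grey). The maximum lies in the first 100 bp, and beyond the 3′ end both Ser5 curves climb to about 700 bp while the input stays flat.

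Exons and introns could not be compared directly, because tags with more than 1 match had been discarded. Of all member exon positions, 66.7% gave a tag that occurs once in the genome at 45 bases (the length in the untreated library), 56.9% at 30 (LPS) and 61.2% at 36 (input). In introns the values were 98.1%, 96% and 97.1%, and in start windows 93.7%, 90% and 91.8%. Single members ranged at 30 bases from 19% of exon positions in Rps6 to nearly all in Rpl3l. The input held 0.63 times as many tags per base in member exons as in introns, and 1.00 times as many per unique position.

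The 30-base tags of the LPS library thus lost more exon positions than the 45-base tags of the untreated library. Over exons the summed ratio of LPS to untreated was 0.824 (0.797 to 0.851) per base and 0.966 (0.935 to 0.999) per unique position. Over introns it was 0.932 (0.911 to 0.954) and 0.953 (0.931 to 0.975). Over start windows it was 0.946 (0.929 to 0.964) per unique position, in place of 0.909. Exons held more Ser5 tags than introns per unique position, 1.99 times in untreated cells and 2.02 times after LPS, a value that includes the first exons under the maximum at the start. Across members, the share of unique positions in the start window and the ratio had a Spearman correlation of -0.159 over 78 genes of the same libraries.

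**Figure D5:**
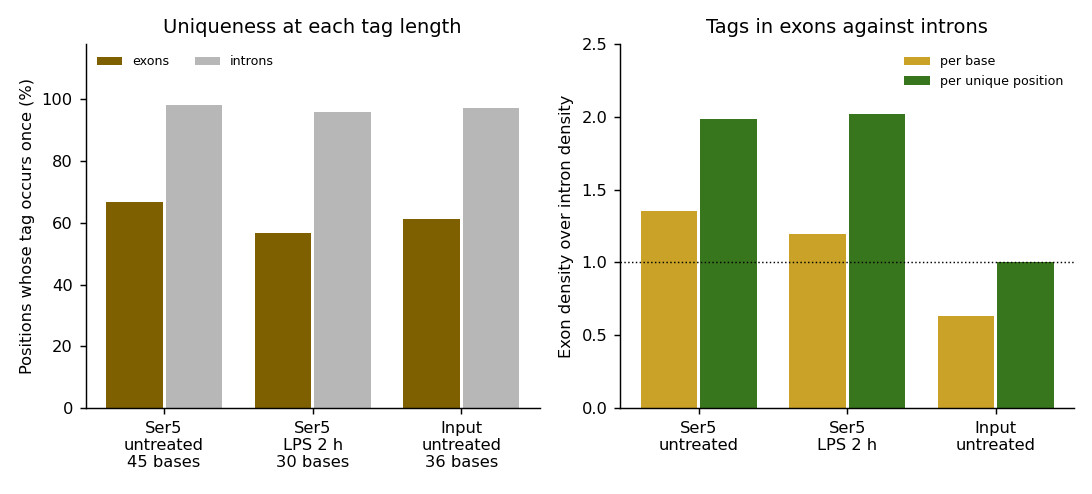
Left, share of exon and intron positions of the 80 members whose tag occurs once in mm9 at the tag length of each library (%). Right, tag density in exons over that in introns per base and per unique position; the dotted line marks 1. The input reaches 1 only per unique position, and the shortest tags, those of the LPS library, have the lowest exon share.

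Genes that work with the ribosomal proteins were read from fixed lists. Among related genes outside the rule, Gnb2l1, the small subunit scaffold RACK1, had a start ratio of 0.881 (0.78 to 0.995), and Rpl7l1 one of 0.826 (0.683 to 0.997). Fau, made as a fusion with a ubiquitin-like protein, had a ratio of 0.97 (0.823 to 1.14) and Rpl22l1 one of 1.05 (0.851 to 1.29). None of these 4 passed 2-fold, and the intervals of the first pair lay below 1. The 15 genes of elongation factors and other TOP mRNAs had a median of 0.847 with 0 of 15 past 2-fold. Pabpc1, the poly(A)-binding protein, had 537 tags before and 617 after LPS, a ratio of 1.40 (1.25 to 1.57), and Eef1a1, the factor that delivers aminoacyl-tRNA, had 1231 and 1119, a ratio of 1.11. Npm1, a nucleolar chaperone, had 449 and 248, a ratio of 0.673.

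The 24 ribosome biogenesis genes had a median of 0.801, with 21 of 24 below 1 and 0 past 2-fold. The lowest were Nolc1, a snoRNP chaperone, with 171 and 74 tags and a ratio of 0.527, Dkc1, the pseudouridine synthase of snoRNPs, with 169 and 74 tags and a ratio of 0.534 (0.4 to 0.705), and Polr1a, the largest subunit of RNA polymerase I, with 185 and 85 tags and a ratio of 0.56. Over the transcript Dkc1 had a ratio of 0.89 (0.749 to 1.06), whose interval includes 1. There 1 of the 24 was at least 2-fold lower and 0 higher, where 11.2% and 6.02% of all genes were. It was Bysl, a factor of small subunit assembly, at 0.401 over the transcript and 0.673 at the start. The median start ratio of this list lay below that of all genes and that of the ribosomal proteins above it. The difference between the lists was not tested.

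Of 17 regulators of ribosome production 1 was at least 2-fold higher and 0 lower, where 5.82% and 13.8% of all genes tested were. The median of the 17 was 0.92. The gene at 2-fold was Mxd1, an antagonist of Myc, with 120 tags before and 197 after LPS, a ratio of 2.00 (1.59 to 2.53). The related Mxi1 went the other way, with 60 and 28 tags and a ratio of 0.569 (0.35 to 0.905). Myc, an activator of ribosome biogenesis, had 523 and 250 tags, a ratio of 0.583 (0.499 to 0.679). Larp1, which binds TOP mRNAs, had 219 and 303 tags, a ratio of 1.69, and Eif4ebp1, a translational repressor under mTOR, had 125 and 168, a ratio of 1.64. The related Eif4ebp2 was lower instead, with 204 and 120 tags and a ratio of 0.717 (0.567 to 0.903). Tsc1, an inhibitor of mTOR signalling, had 210 and 96, a ratio of 0.557. The start intervals of all these genes excluded 1. Among the 17 the interval lay below 1 in 8 and above it in 3, where the shares over all genes tested were 38% and 12%. Over the transcript 2 of the 17 were at least 2-fold higher, where 6.02% of all genes were, namely Larp1 at 2.67 and Mxd1 at 2.54. There Tsc1 had a ratio of 0.909 (0.78 to 1.06), whose interval includes 1.

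The libraries matched their labels in the genes checked. All 8 LPS response genes were at least 2-fold higher after LPS, such as Tnf with 1352 and 6465 tags and Ccl5 with 15 and 2285. Of 9 macrophage markers found, 9 had a Ser5 peak at the start in untreated cells and 8 after LPS. None of the 4 T cell, 4 B cell, 3 erythroid, 3 fibroblast and 4 other tissue genes had one in either library. Among the 4 granulocyte genes 1, Camp, had a peak after LPS only, with 21 and 58 tags.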

How the data were processed

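Ser5 Pol_II ChIP-Seq of untreated and LPS-treated macrophages and input DNA were analysed, 1 library each. According to the methods of the study and the submitters' processing notes, the authors shortened the reads, placed them on mm9 by Bowtie (only tags with a single match, allowing up to 2 mismatches), and called peaks per library against the input by MACS at p of 1e-05. Versions are not given in the sources used here. The deposited tag files list the position and strand of each tag, duplicates kept. The deposited peak lists carry a score, read as minus 10 times the log10 of p, used only to select peaks.

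From these, tags on chromosomes 1 to 19 and X were counted by their 5′ end (Python 3.11.15, numpy 2.4.6, pandas 2.3.3, scipy 1.17.1) in the start window (1000 bp on either side) and the transcript. The transcript was the one with a CCDS entry, the best GENCODE level and the first name. Distinct positions made up 81.4 to 84.5% of tags per library. Ratios were corrected for the library totals, with exact conditional binomial intervals and exact Poisson intervals for levels. Duplicate tags are not independent molecules, and the printed intervals cover counting error only. A gene was called at 2-fold if its level was at least 2 times higher or lower after LPS and the 2 Ser5 libraries together held at least 10 tags. Uniqueness was computed from exact matches of 45, 36 and 30 bases over the whole genome, without mismatches. The counting and intervals were tested on simulated data. Alternatives were other windows, transcript ends, scalings, tag minimums, collapsed or moved tags, exons or introns only and stricter peaks.

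Members named are the 5 highest and 5 lowest start levels, the 5 largest and smallest ratios among genes with at least 50 tags, genes chosen by role or paralogy, and every member without a peak; Rpl18, Rpl19, Rps12, Rpl32, Rpl34 and Rps18 and the genes named from the other lists were named after their values were seen. The members and lists were chosen with earlier results of these data known. Among the listed genes, Spi1 and Rrs1 were not found among spliced coding genes and are not analysed here, and Rpl41 is not analysed here. Values of some single genes are not reported here.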

Additional observations from a re-analysis of the deposited data

How the results depend on the processing

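Of 128 alternative values 87 stayed within the counting interval of the reported value or within 1.5 times of the reported count, and 4 changed sides of 1. Scaled to the median ratio of all spliced coding genes, the summed ratio of LPS to untreated was 1.09 in the start window and 1.02 over the transcript, and the medians were 1.09 and 1.00. Scaled to tags outside the peaks of both Ser5 libraries, the summed ratios were 0.979 and 0.964 and the medians 0.976 and 0.948. With 1 tag per position and strand the summed ratios were 0.938 and 0.918, and per uniquely mappable position 0.946 and 0.94. Over introns only the summed transcript ratio was 0.932, and over exons only it was 0.824 with a median of 0.754.

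Shares over all spliced coding genes were not computed for the alternatives in this paragraph, so the counts have no background beside them. Over whole transcripts as reported, 11.2% of all genes tested were at least 2-fold lower. Over exons only, 6 members were at least 2-fold lower, among them Rpl14, Rpl30, Rpl7a, Rplp1 and Rpl3l. Unique exon positions of the first 4 named were 65.8% or less at 30 bases, against 75.9% or less at 45, and Rpl3l had 14 and 5 tags. Counts at least 2-fold higher were 2 in the start window at 2000 bp on either side (Rpl39l and Rpl3l, each at 12 tags or fewer) and 1 with no minimum (Rpl39l); over the transcript they were 0 with 1 tag per position, 0 over exons and 0 with at least 50 tags.

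Start window enrichment over input was 16.3 in untreated cells and 15.3 after LPS with 1 tag per position, 37.6 and 36.8 with tags outside peaks as the scale, 30.5 and 27.7 at 500 bp and 13.2 and 11.9 at 2000 bp on either side. Transcript enrichment was 12.2 and 11.2 with 1 tag per position, 26.3 and 25.3 with tags outside peaks, 11.7 and 10.6 with the outermost ends of the gene record, 11.3 and 10.5 over introns and 24.2 and 19.9 over exons. The ratio of transcript to start density was 0.285 and 0.262 with 1 tag per position. The counts of members with a peak changed under no alternative by more than 1.5 times. The 2 kb beyond the end over introns, an alternative added after the data were seen, is given with and without near neighbours above.

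No paired analysis was possible because each condition has 1 library and the labels give no replicate numbers. At the lowest depth among the tested members, 116 and 117 tags in Rpl24, the start interval ran from 0.943 to 1.6; no other depth was tried. Unequal tag lengths and conditions cannot be told apart.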
